A study of Caenorhabditis elegans with 4 samples.

Results

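The sparser arms of chromosomes III, IV and V were the right arm of III, the right arm of IV and the left arm of V, as mapped by ChIP-seq of the protein T09A5.8 in Caenorhabditis elegans. Peaks that overlapped by at least 1 bp were merged, and a merged span with a peak from each ChIP replicate was counted as a site. Each chromosome was divided into 3 equal parts, an arm was an outer part less its terminal 500 kb, and a site belonged to the arm that held its midpoint. The arms were chosen by their occupancy in these same peak lists, as the less occupied arm of each chromosome, so their lower occupancy against the other arm is a description and has no test. On build WS220 they ran from 9189164 to 13283745 on III, from 11662560 to 16993838 on IV and from 500001 to 6974674 on V. They held 468 of the 3117 sites of the series, with 203 on the right arm of III, 125 on the right arm of IV and 140 on the left arm of V. That was 15.01% of the sites and 11.6% of the site bases in 15.9% of the chromosome length.

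The animals were hermaphrodites of the strain fem-2(b245), genotype fem-2(b245)III, kept at 20 °C, and all libraries of the series shared this background. Their stage label was the young adult with a germline, although the growth protocol describes gravid adults, and extracts came from whole animals, so germline and soma were not separated. The antibody, SDQ4501, was raised in rabbit, polyclonal and affinity-purified, and gave 2 ChIP libraries. Another 2 libraries of input DNA were not analysed. The data were a list of peaks for each ChIP replicate, with 3810 and 4000 peaks, and a series-level list of 15063 peaks. For each peak the lists hold a position and a score of undefined scale but no read counts, so the depth was unknown. Whether the replicates were separate cultures is not labelled, and their spread may be technical.

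T09A5.8 carries the symbol cec-3 in the gene names of assembly WBcel235 and encodes a chromodomain protein, a kind of protein that binds methylated histone tails. In this species the arms of the autosomes are rich in repeats and in histone H3 lysine 9 methylation, the mark of silent chromatin, whereas the centres are rich in broadly expressed genes. The arms are not alike in content. The right arm of IV holds a large cluster of piRNA genes, whose small RNAs guard the germline against transposons, and the arms of V hold many chemoreceptor genes.

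The right arm of III was the most occupied of the 3 arms, and the right arm of IV and the left arm of V were close to each other. On III the right arm had 57.9 and 62.0 peaks per Mb in replicates 1 and 2, a mean of 59.96 ± 2.94 (SD, n = 2). The right arm of IV had 25.5 and 30.8 peaks per Mb (28.1 ± 3.71), and the left arm of V had 24.7 and 26.3 (25.5 ± 1.09). Both replicates placed III above the other arms by 2.02 to 2.36 times, whereas the replicate values of IV and V overlapped. In sites, the densities were 49.6 per Mb on III, 23.4 on IV and 21.6 on V.

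By covered bases the order of IV and V was the opposite. Peaks covered 14.7% and 15.5% of the right arm of III (15.1% ± 0.578; SD, n = 2), 6.54% and 7.10% of the right arm of IV (6.82% ± 0.394), and 7.43% and 7.88% of the left arm of V (7.65% ± 0.317). The replicate values of IV and V did not overlap, and the covered share of V was 1.12 ± 0.0184 times that of IV (SD, n = 2). The left arm of V had fewer sites per Mb than the right arm of IV and more bases in them, with a mean site width of 3538 bp against 2882 bp. The order in site density turned under some alternatives, with 0.953 times as many sites per Mb on IV as on V when peaks above the median score were used and 0.977 times when arms were the outer of 4 equal parts.

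Each of the 3 arms lay between the other arm and the centre of its chromosome in both replicates. The other arm had 79.6 ± 1.73 peaks per Mb on III, 76.6 ± 2.25 on IV and 73.6 ± 0.983 on V (SD, n = 2). The centre had 18.3 ± 0.616 on III, 12.004 ± 0.728 on IV and 11.4 ± 0.507 on V. Against its centre, the right arm of III had 3.28 ± 0.0502 times as many peaks per Mb, the right arm of IV 2.34 ± 0.168 times and the left arm of V 2.24 ± 0.00362 times. Against the other arm the shortfall was larger in bases than in sites. The right arm of III had 0.790 times the sites per Mb of the left but 0.465 times its covered share, whereas the figures were 0.378 and 0.270 on IV and 0.377 and 0.271 on V. Occupancy chose the arms, so these ratios describe the choice.

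**Figure D1:**
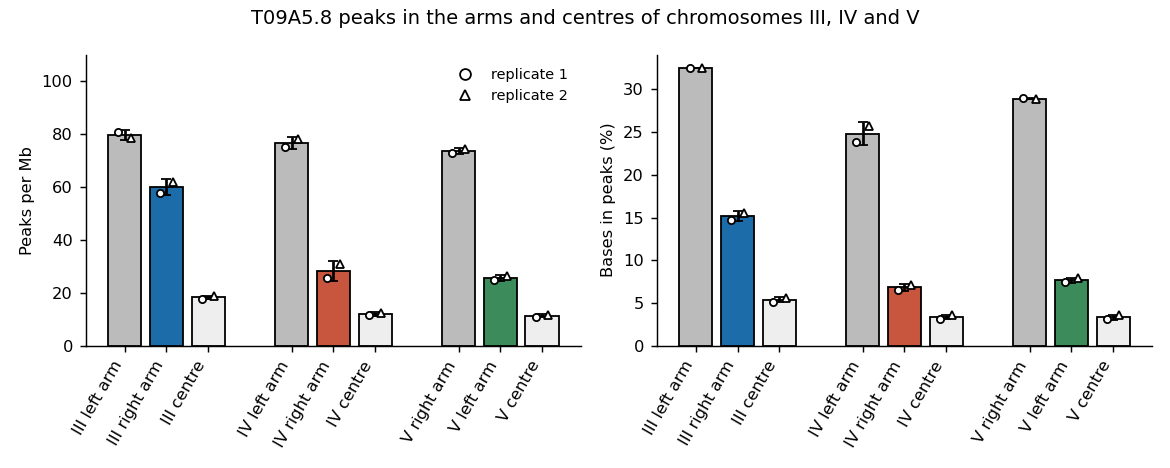
Peaks per Mb (left) and percent of bases in peaks (right) in the other arm, the sparser arm and the centre of chromosomes III, IV and V. Bars are means of the 2 ChIP replicates, error bars are SDs, circles and triangles are replicates 1 and 2, and the sparser arms sit between the grey other arms and the pale centres, with 59.96 peaks per Mb on III against 28.1 on IV and 25.5 on V.

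Along the arms, the right arm of III fell into 2 stretches. In windows of 250 kb counted from the end next to the chromosome centre, the first 7 held 1 to 8 sites each and the next 9 held 13 to 23. The inner 1.75 Mb (9189164 to 10939163) had 17.1 sites per Mb and peaks over 4.42% and 4.73% of its bases in replicates 1 and 2. That was close to the centre of III, with 16.1 sites per Mb. The outer 2.34 Mb (10939164 to 13283745) had 73.8 sites per Mb and peaks over 22.4% and 23.6% of its bases. Its site density was above the 62.8 per Mb of the whole left arm of III, which included a sparse inner end of its own. In 5 equal parts, the innermost part of the left arm had 15.9 sites per Mb. The others had 64.7 to 86.7, a range that took in the 73.8 of the outer stretch. The covered share of the outer stretch, 23.0% ± 0.844 (SD, n = 2), was below the 32.4% of the whole left arm. The division between the stretches was placed after the windows were seen. The fullest window, 12439164 to 12689163, was 36.3% and 38.5% covered and held 23 sites, and the emptiest, 9939164 to 10189163, was 1.18% and 0.386% covered and held 1.

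The right arm of IV had no such step. Its full windows held 1 to 13 sites, with a median of 4, and 5 of the 21 had at least 10% of their bases in sites. These higher windows lay in 2 places, 3 of them between 12662560 and 13662559 and 2 between 16162560 and 16662559. The fullest, 16412560 to 16662559, held 13 sites and was 19.6% and 21.0% covered in replicates 1 and 2. Between 13662560 and 15912559, 9 windows in a row had 1.79% to 8.43% of their bases in sites.

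The left arm of V held both full and nearly empty windows along its length. Of its 25 full windows, 5 had at least 15% of their bases in sites and 8 had under 2%. The fullest was 750001 to 1000000, near the outer end, with 13 sites and 19.9% and 20.2% of its bases covered. A window with 18.97% of its bases in sites (4500001 to 4750000) stood next to the only window without a site (4750001 to 5000000), where replicate 1 had 0% and replicate 2 had 0.845% of the bases in peaks. Farther in, the 3 windows from 5250001 to 6000000 held 1 or 2 sites each. Over the full windows, Pearson's r between the covered shares in replicates 1 and 2 was 0.990 on III (16 windows), 0.987 on IV (21) and 0.996 on V (25), and Spearman's rho was 0.977, 0.983 and 0.978. Within each arm the windows share their libraries, so these are descriptions. The largest difference between replicates in a window was 4.72 percentage points on III, 1.80 on IV and 1.99 on V, below the largest steps in site coverage between neighbouring windows of 15.8, 14.9 and 19.5 points.

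**Figure D2:**
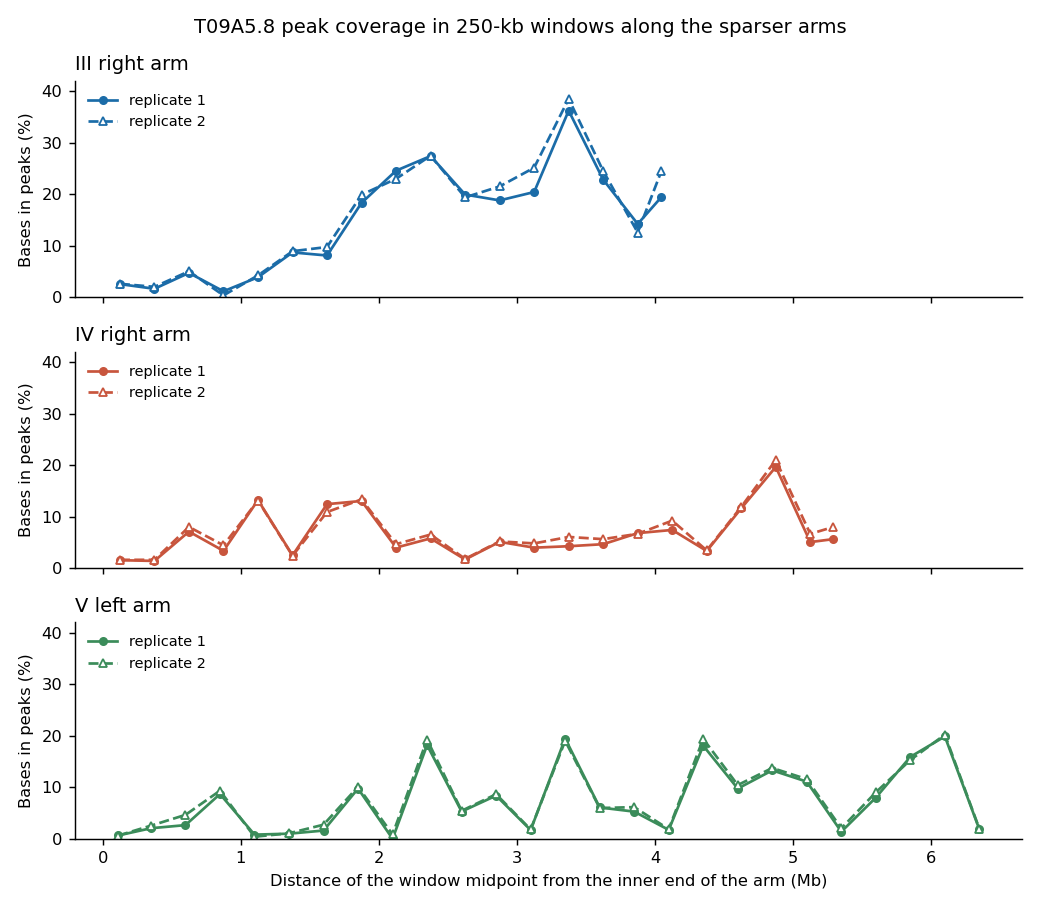
Percent of bases in peaks in windows of 250 kb along the sparser arms, against the distance of the window midpoint from the inner end of the arm in Mb; filled circles with solid lines are replicate 1 and open triangles with dashed lines are replicate 2. On III the first 7 windows stay under 10% in both replicates and the rest lie above 12%. On IV a few windows stand out, some of them next to each other, and on V windows near 20% stand beside windows under 2%.

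Divided into 5 equal parts from the inner to the outer end, the 3 arms began alike, and III then parted from IV and V. The innermost part was covered by 2.86% ± 0.161 on III, 4.44% ± 0.452 on IV and 3.11% ± 0.370 on V (SD, n = 2). The innermost parts of the other arms were also low, with 4.96% ± 0.708 on the left arm of III, 2.18% ± 0.632 on the left arm of IV and 4.94% ± 0.156 on the right arm of V. On IV the innermost part was therefore more covered in the sparser arm than in the other arm in both replicates. The outermost part reached 24.3% ± 0.702 on III, 10.2% ± 0.680 on IV and 9.73% ± 0.289 on V.

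In site counts, the densest part came closer to that of the other arm on III than on IV or V. On III it was the fourth part, with 78.2 sites per Mb, against 86.7 in the densest part of the left arm of III. In covered bases the arms of III were farther apart, with 24.3% ± 0.702 in the fullest part of the right arm and 50.1% ± 2.91 in that of the left (SD, n = 2). On IV the densest part of the right arm had 31.9 sites per Mb and that of the left arm 107.9, and on V they had 34.0 on the left and 97.3 on the right. On V the parts held 12, 18, 30, 44 and 36 sites from the inner to the outer end, more in each of the first 4 than in the one before. On IV the parts held 15, 30, 20, 26 and 34 sites, with no steady order.

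**Figure D3:**
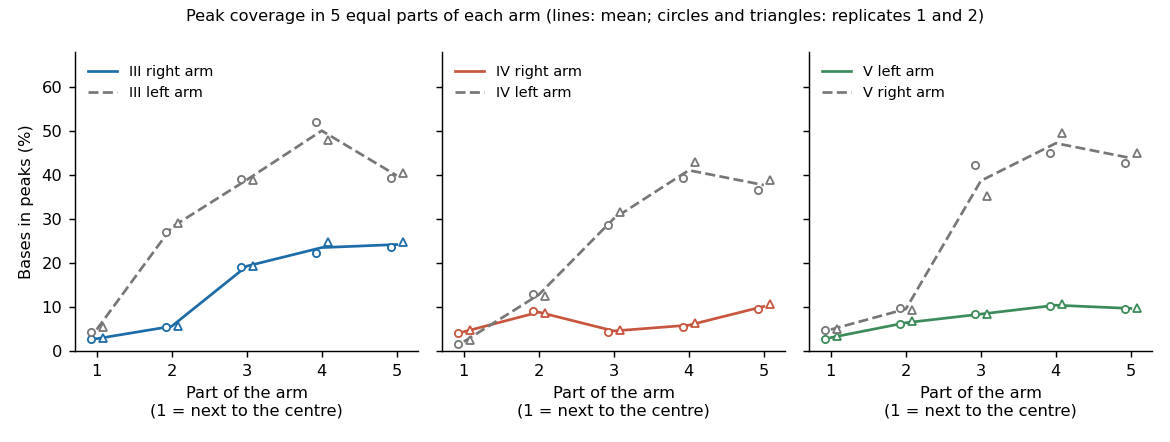
Percent of bases in peaks in 5 equal parts of each arm, from the part next to the chromosome centre (1) to the outer end (5); coloured solid lines are the means of the sparser arms, grey dashed lines those of the other arms, and circles and triangles are replicates 1 and 2. All 6 arms lie between 1.73% and 5.46% in part 1, and in part 5 the sparser arms lie at 24.3% on III, 10.2% on IV and 9.73% on V.

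The sites of the 3 arms were narrow. The median width was 2066 bp on III (from 933 to 16879), 2029 bp on IV (979 to 16116) and 2155 bp on V (981 to 15935). The medians of the other arms were 3158 bp on III, 2633 bp on IV and 3185 bp on V, and those of the centres were 2608.5, 2639 and 2200 bp. Sites of up to 2 kb made up 47.8% of the sites on III (95% Wilson interval 41.0 to 54.6), 49.6% on IV (41.0 to 58.2) and 46.4% on V (38.4 to 54.7). In the other arms the share was 29.2% on III, 35.0% on IV and 27.8% on V. The centres had 37.8% on III (27.6 to 49.2), 31.7% on IV (21.3 to 44.2) and 39.7% on V (28.9 to 51.6). On III and V the interval of the centre took in the share of the sparser arm. Intervals here and below cover counting error only, and neighbouring sites are not independent.

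Single peaks of the replicate lists were also narrower than in the other arms, but III and IV changed places. The median peak width was 1668.5 ± 13.4 bp on the right arm of III, 1740 ± 42.8 bp on the right arm of IV and 1796.5 ± 58.7 bp on the left arm of V (SD, n = 2). In the other arms it was 2372 ± 41.0, 2019 ± 25.1 and 2326.5 ± 111 bp, and in the centres 2101 ± 107, 2185 ± 103 and 1943 ± 135 bp. On each of the 3 chromosomes the sparser arm had the narrowest peaks of the 3 regions in both replicates, although on V replicate 1 gave 1838 bp for the arm and 1847 bp for the centre.

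Broad sites, wider than 10 kb, were few and made up more of the left arm of V than of the right arms of III and IV. There were 5 on the right arm of III, 4 on the right arm of IV and 10 on the left arm of V. They held 11.3%, 14.6% and 25.4% of the site bases of those arms. As a share of sites they were 2.46% on III (95% Wilson interval 1.06 to 5.64), 3.20% on IV (1.25 to 7.94) and 7.14% on V (3.93 to 12.6). The share was 12.5%, 7.25% and 11.1% in the other arms of III, IV and V, and 4.05%, 1.67% and 5.88% in their centres. There broad sites held 40.8%, 27.0% and 37.6% of the site bases of the other arms and 14.8%, 5.69% and 22.0% of those of the centres. The left arm of V was thus near the left arm of IV and the centre of V. Of the broad sites in the sparser arms, the 5 on III all lay in the outer stretch, and 3 of the 4 on IV lay in the outermost part of the arm. On V each of the 5 parts held at least 1.

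Sites on the right arm of III stood close together, and those on IV and V were spread out. The median gap between neighbouring sites was 6308 bp on III, 17356 bp on IV and 13166 bp on V, compared with 3317, 3196 and 2325 bp in the other arms of III, IV and V and 29976, 48058 and 77059 bp in their centres. Gaps under 5 kb made up 45.5% of the gaps on III, 21.8% on IV and 30.2% on V. Sites joined across gaps of up to 25 kb formed groups, and groups of at least 5 sites held 76.8% of the sites on III, 25.6% on IV and 41.4% on V. Single sites made up 8.37%, 24.0% and 20.0%.

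**Figure D4:**
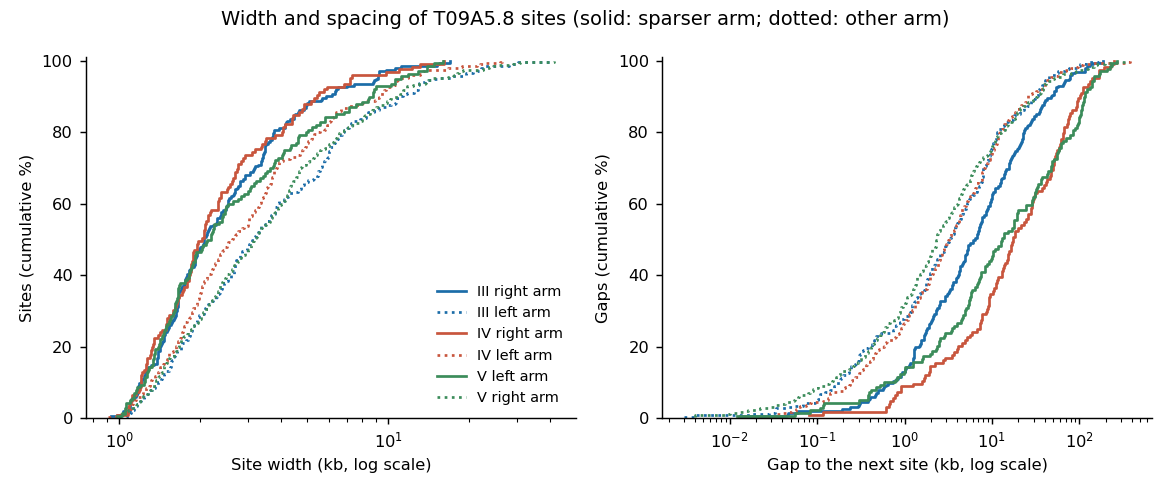
Cumulative percent of sites by width (left) and of gaps between neighbouring sites by length (right), both on log scales in kb, for the sparser arms (solid) and the other arms (dotted) of III, IV and V. The solid width curves lie to the left of the dotted ones, with medians of 2029 to 2155 bp against 2633 to 3185 bp, and the solid gap curves lie to the right, that of III nearest to the dotted ones.

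The largest groups marked the densest neighbourhoods of each arm. On III, 27 sites lay between 11820091 and 12064320, a span of 244 kb that peaks of replicates 1 and 2 covered by 31.3% and 34.1%, and 24 sites lay between 12415306 and 12628830, covered by 42.5% and 45.2%. On IV the largest group held 11 sites between 13436011 and 13540778, covered by 27.6% and 28.8%. On V, 13 sites lay between 900702 and 1023374 (40.8% and 40.3% covered) and 13 between 2603256 and 2693419 (45.6% and 49.9%). Within their span the largest groups of V were covered about as densely as that second group of III. The arms differed more in how many groups of sites they held, with 12 groups of at least 5 sites on III, 4 on IV and 7 on V.

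The longest stretches without a site were of similar length on IV and V. They spanned 187961 bp on III (9906418 to 10094378), 249464 bp on IV (14533165 to 14782628) and 271998 bp on V (4731604 to 5003601). They were not free of peaks. Replicate 1 had 1 peak in the III stretch and 0 in the others, and replicate 2 had 0, 1 and 2. The series-level list had 5, 6 and 3 peaks there, with scores of at most 8.27, 6.02 and 12.55.

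Site strength was compared by the highest score of a site in each replicate. The median was 393 in replicate 1 and 577 in replicate 2 on the right arm of III, 250 and 514 on the right arm of IV, and 375 and 525 on the left arm of V. Each was below the median of the other arm of its chromosome, which ran from 557 to 684 in replicate 1 and from 823 to 1032 in replicate 2. The centres of III, IV and V had medians of 558, 483 and 303 in replicate 1 and 942, 1287 and 719 in replicate 2. The sparser arm was below its centre in both replicates on III and IV, and in replicate 2 only on V. The median of IV was the lowest of the 3 arms in both replicates, although close to that of V in replicate 2. Replicate 2 gave the higher score at 135 of the 203 sites on III, 93 of the 125 on IV and 105 of the 140 on V, and the scores were equal at 25, 10 and 15. Over the sites, which share their libraries, Pearson's r between the scores in replicates 1 and 2 was 0.947 on III, 0.844 on IV and 0.876 on V, and Spearman's rho was 0.918, 0.829 and 0.866.

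**Figure D5:**
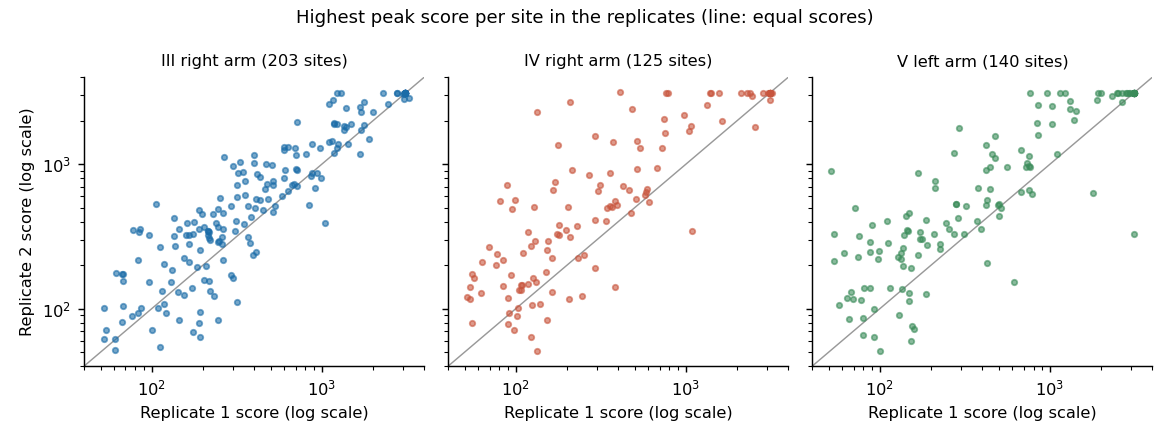
Highest score of each site in replicate 1 (horizontal) against replicate 2 (vertical), both on log scales, for the 203, 125 and 140 sites of the sparser arms of III, IV and V; the line marks equal scores. Most points lie above the line, and a row of points at 3100 marks the top value that many peaks share.

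The members made up 15.01% of all sites of the series, and a smaller share of the widest ones. Of the 300 widest sites, 27 (9%) were members, and of the 100 widest, 7 were. By score the shares were closer to 15.01%. Of the 407 sites that scored 3100 or more in both replicates, 51 (12.5%) were members, 25 on III, 11 on IV and 15 on V. Ranked by series-level score, 12 of the first 100 were members, 9 on III, 3 on IV and 0 on V. Of the first 300, 40 (13.3%) were, 18 on III, 9 on IV and 13 on V. The differences from 15.01% were not tested.

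The leading sites of the right arm of III lay in its outer stretch. By mean score percentile and then series-level score, the first was 12608961 to 12617983, a site of 9023 bp with 1 peak and a score of 3100 in each replicate. Its single series-level peak scored 110, the highest of the 3 arms. The next were 12544086 to 12560964, also the widest site of the 3 arms at 16879 bp, 11183366 to 11198456 (15091 bp) and 12917362 to 12921123 (3762 bp), which scored 3100 in both replicates. The second widest on III was 11658200 to 11673610, a site of 15411 bp that replicate 1 had as 1 peak of 15025 bp and replicate 2 as peaks of 14327 and 988 bp.

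On the right arm of IV, 4 of the 5 leading sites lay between 16400422 and 16646723, near the outer end. The first by score was the exception, 13502642 to 13509473, a site of 6832 bp that scored 3225 in replicate 1 and 3100 in replicate 2. It lay in the largest group of the arm, and its series-level score was 29.0. The others were 16417178 to 16429443 (12266 bp, series-level score 105), 16642090 to 16646723 (4634 bp, 98.0) and 16487671 to 16503786 (16116 bp, 94.9), each with a score of 3100 in both replicates. The second widest, 16400422 to 16413519 (13098 bp), scored 3100 in replicate 1 and 2761 in replicate 2.

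On the left arm of V the leading sites were spread between 969773 and 4536243. The first by score was 1148790 to 1157559, of 8770 bp, with 3100 in both replicates and a series-level score of 74.95, the highest of that arm. The widest was 969773 to 985707, of 15935 bp, which replicate 2 had as 1 peak and replicate 1 as peaks of 12291 and 3639 bp, each scoring 3100. The sites 2052119 to 2060906 (8788 bp) and 3682812 to 3696762 (13951 bp) also scored 3100 in both. The second widest, 4521509 to 4536243 (14735 bp), was the one of these 5 at which the replicate scores differed. Replicate 1 had peaks of 8706 and 5599 bp there with scores of 2804 and 3100, and replicate 2 had 1 peak of 14675 bp with a score of 331.

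Whether sites in groups were stronger than single ones differed in direction between arms. On III the 156 sites in groups of at least 5 had a median width of 2127 bp and a median score percentile of 55.7, against 1703 bp and 39.9 for the 17 single sites. On IV the order was the opposite, with 1856.5 bp and 41.0 for the 32 grouped sites and 2326.5 bp and 56.3 for the 30 single sites. On V the 58 grouped sites were wider (2741 bp against 2085 bp for the 28 single sites), while the score percentiles were 54.3 and 55.6. These differences were not tested.

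Within sites, position and extent were closely alike in the replicates. A site required overlapping peaks of both, so part of that agreement was set by the rule. Most sites had 1 peak of each replicate, 92.1% on III, 93.6% on IV and 92.9% on V, compared with 79.8%, 85.8% and 80.1% in the other arms. The centres of III, IV and V had 98.6%, 91.7% and 94.1%, so the sparser arms did not stand apart from them. At such sites of the sparser arms, the starts of both peaks differed by a median of 85 bp on III, 76 bp on IV and 74.5 bp on V. The ends differed by 80, 71 and 75.5 bp. Of the bases in a peak of either replicate, 77.8% on III, 78.0% on IV and 81.6% on V were in peaks of both. The other arms of III, IV and V had 82.6%, 81.5% and 75.6%, and their centres 80.2%, 79.7% and 73.5%.

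Peaks of a single replicate were weak and mostly from replicate 2. The right arm of III had 26 peaks of replicate 1 and 42 of replicate 2 with no partner, the right arm of IV 8 and 31, and the left arm of V 13 and 25. As a share of the peaks of replicate 2, those without a partner were 16.5% on III, 18.9% on IV and 14.7% on V. The same share was 11.8%, 15.1% and 12.7% in the other arms of III, IV and V. It was 14.0%, 13.7% and 17.1% in their centres, so on V the centre was above the sparser arm. Between 81.1% (95% Wilson interval 74.4 to 86.4) and 85.3% (79.2 to 89.8) of the replicate 2 peaks in the sparser arms were shared. In replicate 1 the shared part ran from 89.0% (84.4 to 92.4) on III to 94.1% (88.8 to 97.0) on IV. It ran from 89.1% to 93.25% in the other arms and from 91.5% to 95.5% in the centres. The median score of the unshared peaks of replicate 2 was 91.8 on III, 92.5 on IV and 81.4 on V, against 518, 505 and 519 for the shared ones. The strongest of them, on V, scored 2053. A series-level peak overlapped 41 of the 42 on III, 29 of the 31 on IV and 24 of the 25 on V.

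Series-level peaks described the same order and were narrower, with median widths of 357, 338 and 350.5 bp on III, IV and V. There were 206 per Mb on the right arm of III, 90.6 on the right arm of IV and 89.9 on the left arm of V, covering 14.5%, 6.05% and 6.88% of the bases. Sites held a median of 2 series-level peaks in each arm and up to 12 on III, 10 on IV and 11 on V, and 1 site on IV held 0. Series-level peaks found in neither replicate made up 31.4% on III (265 of 843, 95% Wilson interval 28.4 to 34.6), 31.5% on IV (152 of 483, 27.5 to 35.7) and 29.7% on V (173 of 582, 26.2 to 33.6). In the other arms the shares were 24.3%, 22.8% and 28.8%, and in the centres of III, IV and V they were 26.4%, 31.9% and 31.9%, so on IV and V the centres were as high as the sparser arms. Their median scores in the sparser arms were 4.68, 4.07 and 4.37, against 12.6, 10.6 and 9.62 for series-level peaks found in both replicates. These shares were not tested, since the list and the replicates may rest on the same reads.

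The sites nearest the cuts of the rule were as follows. On III the nearest site inside the inner cut was 9236225 to 9239581 (3357 bp, scores 1226 and 1903) and the nearest outside was 9110161 to 9111426 (1266 bp, 77.4 and 116). At its outer cut they were 13273261 to 13274436 (1176 bp) and 13293580 to 13296369 (2790 bp). On IV the inner cut separated 11691761 to 11693024 (1264 bp, scores 117 and 149) from 11567210 to 11574333 (7124 bp, 3100 in both), and the outer cut separated 16941681 to 16944598 (2918 bp) from 16996579 to 16997998 (1420 bp). On V the outer cut lay between 650805 to 651971 (1167 bp) inside and 323568 to 329632 (6065 bp) outside, and the inner cut between 6792880 to 6794529 (1650 bp) and 7114313 to 7115665 (1353 bp).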

How the data were processed

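Per the file headers, positions are on WormBase build WS220, and the lists name MACS as the peak caller of the replicates and MACS v2 as that of the series-level list. Aligner, thresholds, pooling and use of input are not given in the sources used here. Peaks carry one value, the score the authors deposited, of undefined scale, used to rank and describe peaks within a list; many replicate peaks share the value 3100. Such lists give no amount of bound protein.

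Chromosome lengths were the largest peak end in any list. The arms, windows, groups and named sites were computed with Python 3.11.15, numpy 2.4.6 and scipy 1.17.1, and drawn with matplotlib 3.10.9. Site building and coverage were checked on simulated lists. Sites named in each arm were the 4 with the highest mean score percentile over the replicates (ties by series-level score), the 3 widest and the 1 with the highest series-level score. No test was run, because the arms were chosen by occupancy. The members and lists were chosen with earlier results of these data known. Alternatives were a 50% overlap, peaks above the median score, each replicate alone, the series-level list, arms as the outer of 4 equal parts, the terminal 500 kb, and other gaps and windows. Gene content was not analysed, because the gene names used here belong to another build.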

Additional observations from a re-analysis of the deposited data

How the results depend on the processing

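The order with III above IV and V held under all 7 alternatives run, with 2.02 to 2.55 times the density of IV and 2.25 to 2.43 times that of V. The order of IV and V in site density turned with peaks above the median score (0.953) and with arms as the outer of 4 equal parts (0.977), whereas in covered bases V stayed above IV under all 7. Sites per Mb on III, IV and V were 24.4, 9.57 and 10.0 with peaks above the median score and 206, 90.6 and 89.9 in the series-level list. With the outer of 4 equal parts they were 64.2 on III and 26.4 on V. Against the other arm, the ratio was 0.645, 0.267 and 0.313 with peaks above the median score and 0.639, 0.339 and 0.281 with series-level peaks. It was 0.322 on IV with the outer of 4 equal parts and 0.735 on III with the terminal 500 kb kept; the cause was not tested. No ratio reached 1. The arms were chosen as the less occupied ones in these same lists, so that was largely set by the choice. With 1 replicate left out, sites per Mb ran from 57.9 to 62.0 on III, 25.5 to 30.8 on IV and 24.7 to 26.3 on V, and the ratio from 0.716 to 0.791, 0.340 to 0.393 and 0.339 to 0.353. Groups of sites on III numbered 77 with gaps of up to 10 kb and 20 with 50 kb, against 39. The fullest 10% of the windows of V held 43.7% of its site bases in windows of 100 kb and 24.0% in windows of 500 kb, against 30.9% in windows of 250 kb. The number of windows was rounded up, so the part of the arm they covered differed between sizes. ChIP could not be paired with input, because only ChIP lists were analysed. Depth is unknown, so regions without peaks cannot be read as unbound.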

Other observations

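Some sites scored 3100 or more in one replicate and under 1000 in the other. There were 0 on the right arm of III, 2 on the right arm of IV and 3 on the left arm of V. The other arms of III, IV and V held 2, 4 and 4, and each of their centres held 0. The widest gap on IV was at 12021715 to 12025762, which scored 408 in replicate 1 and 3142 in replicate 2.

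Series-level peaks found in neither replicate reached higher scores on III than on IV and V. The strongest on III lay at 11612484 to 11617228, 4745 bp wide with a score of 53.2, and the next at 11607460 to 11610376 scored 37.2. The nearest sites were 6279 and 13131 bp away. The strongest on IV (12637965 to 12638600) scored 13.2, and the strongest on V (5283185 to 5285881) scored 22.8.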
